A study of Prunus persica and Prunus armeniaca with 129 samples.

Results

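The genes described here are 150 of the 26872 genes counted in the series, those whose transcripts were most concentrated in dormant apricot floral buds. They were chosen from measured values. For each gene the count in a library was divided by the library total and multiplied by 1000000 (CPM), and group means were taken over 17 apricot libraries at 0 and 100 chill hours (CH, accumulated hours of cold), 5 libraries of buds later in chilling (A2137 at 400 CH and A660 at 800 CH), 11 with sepals visible, 11 with petals visible and 5 of flowers. A gene was kept where the mean at 0 and 100 CH was the largest and where A660, a late blooming apricot, had at 400 CH no more than 2 times its mean at 0 CH and no more than 1.5 times its mean at 100 CH, which 6487 genes met. The kept genes were ranked by the log2 ratio of that mean to the second largest group mean, with 1 CPM added to both, and the first 150 were taken.

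The 129 libraries come from 60 apricot and 69 peach samples, each a collection of floral buds, or of flowers for A2137 and A1956 at 800 CH. The apricots were grafted trees in France of the early blooming A2137 (Bakour) and A1956 (Palsteyn) and the late blooming A660 (Bergeron) and A1267 (Badami), collected at 0, 100, 400 and 800 CH and when sepals and petals became visible, with 1 to 3 libraries of a genotype at a time. The peaches were cloned trees in South Carolina of 4 genotypes from the second generation of a cross between "Fla.92-2C" and "Contender", the low chill A209 and A340 and the high chill A318 and A323, collected at 0, 100 and 600 CH and shortly before bloom (pre-bloom), and at 1000 CH for the high chill pair alone, with 7 or 8 libraries of a chill class at a time. None was treated, replicates of a genotype are clones of 1 tree, each chill or bloom class rests on 2 genotypes, and the p-values measure the spread between these samples. The early and late classes and the chill classes are those of the study and not of the sample labels.

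Temperate fruit trees form floral buds in summer that stop growing in autumn and stay endodormant, unable to open even in warmth, until a genotype's chilling requirement is met. The buds are then ecodormant, held back only by cold, while anthers and pollen develop, and they open once it is warm. The DAM genes (dormancy-associated MADS-box), repeated side by side in peach, are the best known transcripts of endodormant buds. Other processes tied to bud dormancy are the removal of active gibberellins, restraint of cell division and organ growth, and the build-up of dehydrins and other proteins that protect cells in the cold.

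Apricot libraries held 7593825 to 26253101 counts and peach libraries 494799 to 26858662, and 3 counts, taken as the least a library can show, equal between 0.114 and 0.395 CPM for apricot and between 0.112 and 6.06 CPM for peach, for counting error alone. Of the 9 shallowest peach libraries, with 494799 to 2303355 counts, 8 were taken at 1000 CH or pre-bloom, so the later peach steps are the least precise. Some summed levels in peach also differed with depth within a group, and the part of depth was not tested. The labelled tissue held its markers: of 5 genes of floral organs (AG, AP3, AP1, AGL6 and STK) no library had more than 1 at 0, and their summed level lay between 109 and 605 CPM for apricot and between 30.2 and 495 CPM for peach. The summed level of 10 genes of the tapetum (the layer that feeds pollen) and pollen wall was 0.557 to 3.37 CPM in the 17 apricot libraries at 0 and 100 CH, where 0 to 6 of the 10 were at 0. In A660 at 800 CH that sum was 1790 and 2729 CPM in replicates 1 and 2 but 87.7 CPM in replicate 3, so these buds were not alike, and 135 of the 150 genes stayed in the list without replicate 3, a choice made after the data were seen. In bulk tissue, fewer cells of a type and less RNA per cell cannot be told apart.

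The score of the 150 genes, the log2 ratio that ranked them, was 1.55 to 4.57 with a median of 1.97. The highest scores belonged to Prupe.1G226500 (4.57), whose best Arabidopsis hit is the cytochrome P450 CYP78A10, and to Prupe.4G204600 (4.47), a match to GA2OX8, an enzyme that inactivates gibberellin precursors. They were followed by Prupe.1G028500 (4.30), Prupe.1G132700 (4.15), Prupe.3G301500 (3.74), the early nodulin-related Prupe.7G239200 (3.63), Prupe.1G580200 (3.51), Prupe.4G080700 (3.41), Prupe.8G122200 (3.40), Prupe.1G028400 (3.36), Prupe.1G038100 (3.29) and Prupe.6G314200 (3.26). Prupe.4G061700 (1.56), Prupe.1G580100 (1.56) and Prupe.6G203000 (1.55) were the last inside the list and Prupe.1G306200 (1.54), Prupe.1G219000 (1.54) and Prupe.4G021100 (1.54) the first outside it, so there was no gap at its end. The second largest mean was that of the later chilling buds for 102 genes, of flowers for 26, of sepal visible buds for 19 and of petal visible buds for 3. Scored in the same way, DAM6 (6.21), DAM5 (5.59) and DAM4 (3.46) would have stood inside the list, at ranks 1, 2 and 10, and DAM3, DAM2 and DAM1 outside it, but the DAM models carry names of another annotation and were not eligible.

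Mean levels at 0 and 100 CH were 2.68 to 7412 CPM with a median of 35.4 CPM, above 100 CPM for 29 genes and below 10 CPM for 28. Prupe.7G161100, a match to the dehydrin COR47 that protects cold-stressed cells, had the highest mean (7412 CPM) and alone gave 29.9% of the summed level of the list. The next were Prupe.1G038000 (3673 CPM), Prupe.1G028800 (1780 CPM), Prupe.7G255400 (1415 CPM), Prupe.7G239200 (635 CPM), Prupe.1G028400 (560.1 CPM), Prupe.1G028500 (551 CPM) and the formin FH1, which builds actin filaments (Prupe.7G267500, 503 CPM). Names were taken from lists that the study chose on these samples, and they gave a description for 59 genes, so 91 of the 150 have none there. Of these, the study's text calls Prupe.4G080700 a gibberellin 2-oxidase, like GA2OX8, and Prupe.1G071800 an auxin efflux carrier. The genes lay on all 8 chromosomes of the peach genome, 35 of them on chromosome 1 and 24 on chromosome 6. Neither these counts nor those of neighbours below were set against all genes, so they are not shown to be particular to the list. In 13 places 2 or 3 genes of the list were at most 5 gene models apart, which took in 28 genes, such as Prupe.1G028400, Prupe.1G028500 and Prupe.1G028800, Prupe.1G038000, Prupe.1G038100 and Prupe.1G038200, and Prupe.3G100800 and Prupe.3G101000, both matches to the phenylpropanoid enzyme HCT. If such neighbours are near-identical copies, their separate levels are uncertain, since the counting of reads that fit several genes is not given in the sources used here.

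Over the 150 genes, the mean of log2(CPM + 1) was 4.24 to 5.46 in the 17 apricot libraries at 0 and 100 CH, 2.58 to 2.89 in the 5 later chilling libraries, 1.79 to 2.50 with sepals visible, 1.53 to 1.75 with petals visible and 1.99 to 2.23 in flowers. The rule fixes the first place of the buds at 0 and 100 CH and not the order of the other groups, and these values are a description. At 400 CH the mean was 2.86 and 2.89 in A2137, 4.02 and 4.23 in A1956 and 4.21 to 4.32 in A1267, and at 800 CH it was 2.58 to 2.88 in A660 and 3.62 to 3.73 in A1267, whose sepal visible libraries had 1.79 to 1.84. Most genes peaked before any chilling: 112 of the 150 had their highest group mean at 0 CH in A2137, 111 in A1956, 104 in A660 and 86 in A1267, where 37 peaked at 100 CH and 22 at 400 CH. The libraries at 0 and 100 CH chose the genes, so early peaks describe the choice. The same count over all genes was not made. At 0 CH, A2137 and A1267 had 1 library each.

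**Figure D1:**
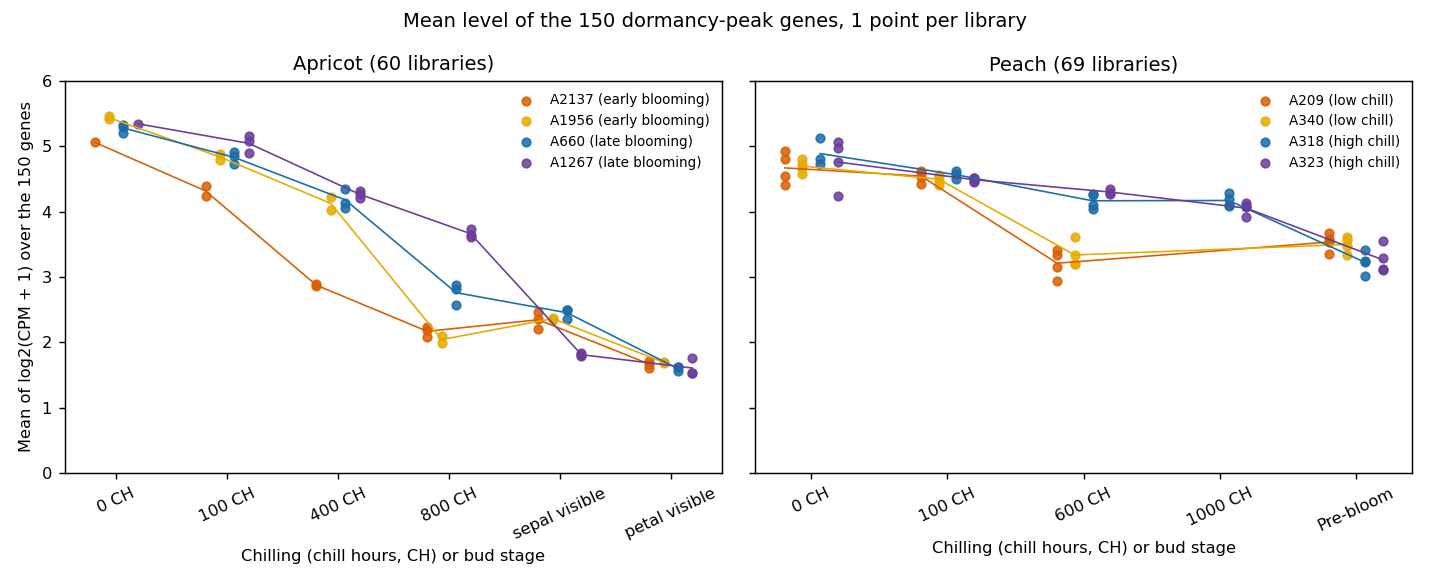
Each point is 1 library and gives the mean of log2(CPM + 1) over the 150 genes by chill hours or bud stage, for the 4 apricot (left) and the 4 peach (right) genotypes, with lines through the genotype means. Apricot libraries at 0 and 100 CH lie at 4.24 to 5.46, and peach at 600 CH separates into 2.94 to 3.62 in low chill and 4.04 to 4.34 in high chill libraries.

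CYP78A10 shows the pattern in single libraries. It had 27.3 CPM at 0 CH in A2137, 4.05 and 1.87 CPM at 100 CH and 0.267 and 0.132 CPM at 400 CH. In A660 it had 59.01, 49.9 and 66.001 CPM at 0 CH, 74.8, 47.4 and 63.9 CPM at 100 CH, 59.4, 33.8 and 47.2 CPM at 400 CH and 1.74, 1.03 and 2.90 CPM at 800 CH. At 400 CH it was near 0 in A2137 and overlapped its range at 0 CH in A660, both among the values the rule used. COR47 had 5693 CPM at 0 CH in A2137, 4295 and 5344 CPM at 100 CH and 1228 and 1345 CPM at 400 CH, and in A660 8438, 6908 and 8060.1 CPM at 0 CH, 10547, 10938 and 11572 CPM at 400 CH and 3416, 2450.4 and 614 CPM at 800 CH. The rule used these values as well, so the low levels of A2137 at 400 CH and of A660 at 800 CH are a description of the choice.

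Of the members without a description, 3 genes of chromosome 8 stood out for a peak at 0 CH alone. Prupe.8G099400 had 221, 184 and 142 CPM at 0 CH in A660, 29.2, 25.5 and 17.02 CPM at 100 CH and 0.805, 0.431 and 0.105 CPM at 400 CH. In A1267 it had 45.9 CPM at 0 CH, 0.824, 2.34 and 2.84 CPM at 100 CH and 0.533, 0.145 and 0 CPM at 400 CH. Prupe.8G098800 and Prupe.8G099600 had the same course, with group means of 157 and 19.2 CPM at 0 CH in A660 and of 0.204 and 0.0349 CPM at 400 CH. These genes were singled out after their values were seen.

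**Figure D2:**
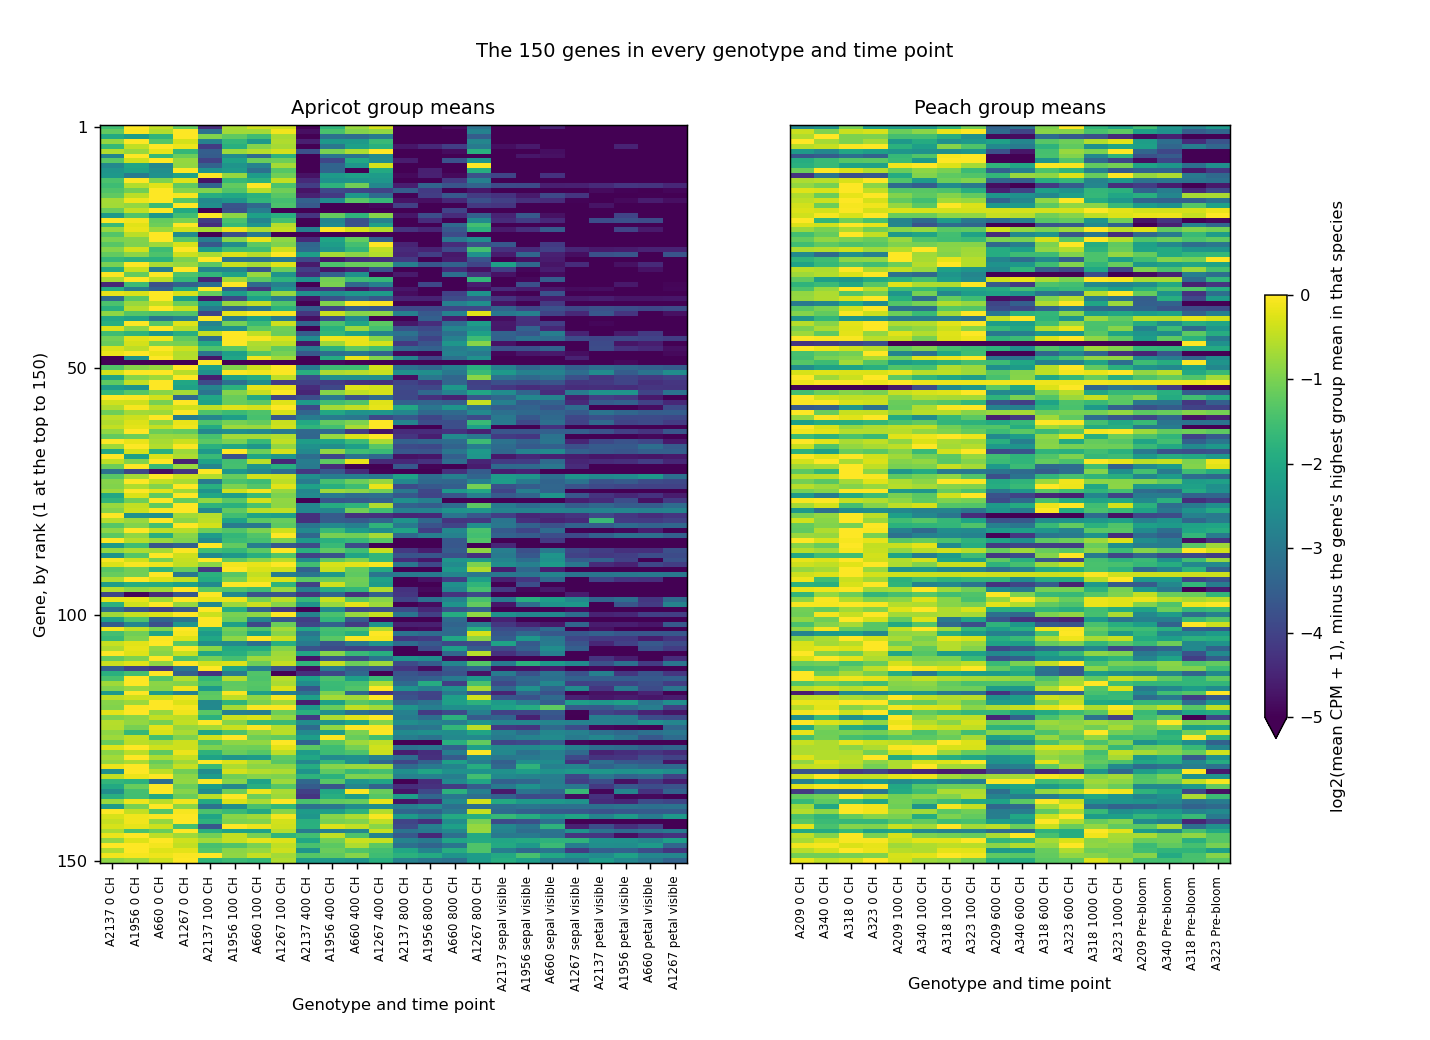
Each row is 1 of the 150 genes by rank and each column a genotype and time point, and the colour gives log2(mean CPM + 1) minus the gene's own highest group mean in that species. In apricot the columns at 0 and 100 CH are bright, A2137 turns dark at 400 CH and A660 at 800 CH, and in peach A209 and A340 are darker than A318 and A323 at 600 CH.

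Dormant buds of the 4 apricots did not hold the same levels. At 100 CH the genotype means of a gene spanned a median of 1.75 on the log2 scale, against a median replicate SD of 0.28, and the span was over 2-fold for 122 genes and over 4-fold for 66. The lowest mean was that of A2137 for 82 genes and the highest that of A1267 for 74. A span of 4 means and an SD of replicates are unlike measures. Spans over all genes were not counted, so wide spans are not shown to be particular to the list. CYP78A10 averaged 2.96 CPM in A2137, 51.1 CPM in A1956, 62.04 CPM in A660 and 61.9 CPM in A1267. The opposite order was found for the sulfate transporter SULTR1;3 (Prupe.1G558300), with 134 CPM in A2137 and 1.85, 1.72 and 1.84 CPM in A1956, A660 and A1267. The ethylene response factor ERF13 (Prupe.2G272300) averaged 272, 72.1, 24.7 and 14.2 CPM in A2137, A1956, A660 and A1267, and the F-box protein AFR (Prupe.1G459700), which acts in phytochrome A signalling in Arabidopsis, 252, 59.4, 34.2 and 17.7 CPM. These libraries chose the genes, so the differences carry no test, and 110 of the 150 stayed in the list without A2137.

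**Figure D3:**
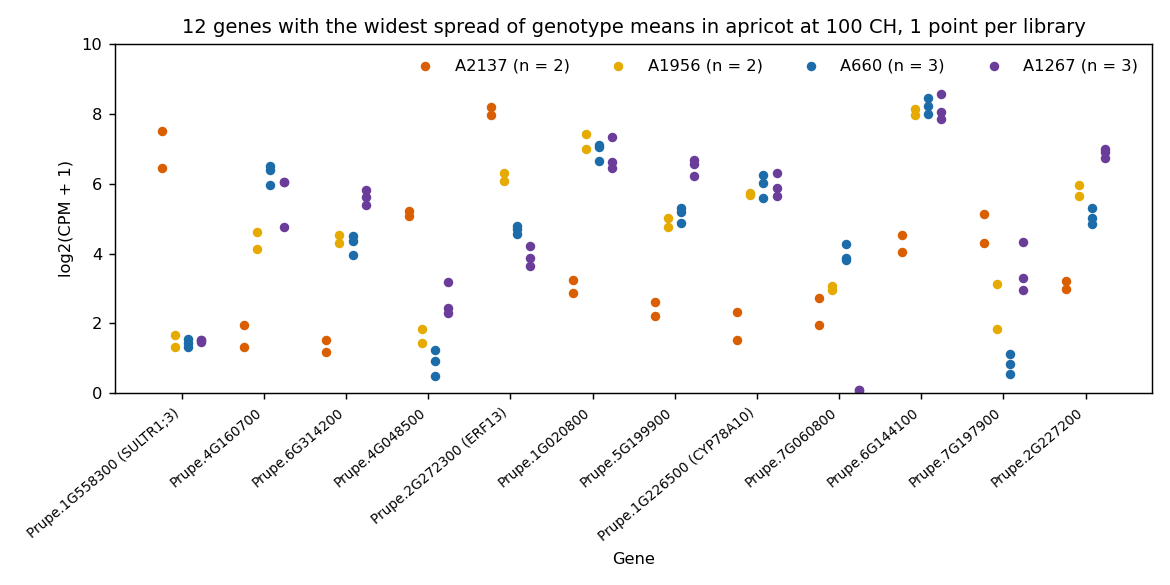
Levels at 100 CH, as log2(CPM + 1), of the genes with the widest span between genotypes, 1 point per library and 1 colour per genotype. SULTR1;3 is high in A2137 alone (mean 134 CPM against 1.72 to 1.85 CPM elsewhere), while CYP78A10 is low in A2137 alone (2.96 CPM against 51.1 to 62.04 CPM).

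The apricot libraries of A1956 at 400 CH and of A1267 at 400 and 800 CH had no part in the choice, nor had any peach library, so the comparisons below are between these groups alone. The study counts these apricot libraries as endodormant. It counts A2137 at 400 CH and A660 at 800 CH, called later chilling buds here, as ecodormant. The study made that grouping from expression, without measured chilling requirements. The apricot fit took its estimate of the spread from all 60 apricot libraries, those that chose the genes included. A gene was called lower or higher where edgeR's quasi-likelihood test gave an adjusted p below 0.05 (Benjamini-Hochberg over all genes tested) and the change was over 2-fold. Log2 fold changes follow with ± SE.

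In A1267, 55 of the 150 genes were lower and 14 higher at 800 CH than at 400 CH, where 3.79% of the 22472 genes tested were called lower and 9.13% higher. Of the list 36.7% were lower and 9.33% higher, the last close to the share over all genes. The median log2 fold change was -0.62 over the 150 and 0 over all genes tested. The CPM ranges of the 3 and 3 libraries did not overlap for 79 genes in the lower and 21 in the higher direction, against 15.7% and 16.1% of all 26872 genes. Without 1 of these libraries in turn, 49 to 58 were lower. The counts were read from trees of 1 genotype only.

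COR47 and MIOX1, CYP78A10 and GA2OX8 were among the genes that fell. COR47 had 2106, 1378 and 1427 CPM at 800 CH, against 17044, 12063 and 10344 CPM at 400 CH (log2 fold change -2.98 ± 0.31, adjusted p = 7.32e-10), and no library at 800 CH reached the lowest at 400 CH. MIOX1 (Prupe.3G055000), which opens the ring of myo-inositol, had 8.65, 15.2 and 17.1 CPM at 800 CH, against 188, 213 and 192 CPM at 400 CH (log2 fold change -3.83 ± 0.34, adjusted p = 1.27e-11). CYP78A10 had 7.86, 8.37 and 9.08 CPM at 800 CH, against 70.3, 67.8 and 52.2 CPM at 400 CH (log2 fold change -2.89 ± 0.32, adjusted p = 8.09e-09). GA2OX8 had 13.1, 14.4 and 20.1 CPM at 800 CH, against 60.7, 61.9 and 73.8 CPM at 400 CH (log2 fold change -2.03 ± 0.25, adjusted p = 5.34e-08). The ranges of all these genes lay apart. KLU (Prupe.1G288900, CYP78A5), which prolongs organ growth in Arabidopsis, fell by 2.17 on the log2 scale and the heat stress factor HSFA2 (Prupe.7G206900) by 2.32. Prupe.5G090300 had 0.427, 0.797 and 0.436 CPM at 400 CH and no count in the 3 libraries at 800 CH, where 3 counts equal 0.192 to 0.238 CPM. The other members with the largest falls were Prupe.1G012900 (-5.71 ± 0.66), Prupe.1G038200 (-5.69 ± 0.74) and the cupin Prupe.6G095000, which had 0, 0.0722 and 0.128 CPM at 800 CH, against 1.28, 1.01 and 1.02 CPM at 400 CH (adjusted p = 1.23e-05), or 3 counts in all at 800 CH.

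GRF1, GIF1, SUVR4 and LFY did not pass in A1267. The log2 fold change was -0.34 ± 0.20 for GRF1 (Prupe.1G419000), -0.02 ± 0.25 for its coactivator GIF1 (Prupe.6G346900), 0.20 ± 0.38 for the histone methyltransferase SUVR4 (Prupe.1G047100) and -0.86 ± 0.34 (adjusted p = 0.0508) for LFY (Prupe.5G140700), which gives a meristem its floral identity. Among the 14 that rose, RBOHC (Prupe.5G138300), an NADPH oxidase that makes reactive oxygen, had 72.3, 81.6 and 109 CPM at 800 CH, against 46.6, 43.03 and 29.5 CPM at 400 CH (log2 fold change 1.16 ± 0.27, adjusted p = 0.000849), but was under 2-fold without A1267 400 CH replicate 3 (0.98 ± 0.30, adjusted p = 0.0108). The others with the largest rises were Prupe.8G099400 (3.41 ± 0.87), Prupe.8G068100 (2.73 ± 0.81) and Prupe.6G212000 (1.88 ± 0.54; without A1267 800 CH replicate 1 1.43 ± 0.58, adjusted p = 0.0656), beside 2 genes with no count at 400 CH. Prupe.8G098800 had 0.635, 0.866 and 1.73 CPM at 800 CH and no count at 400 CH, where 3 counts equal 0.217 to 0.320 CPM, and Prupe.8G099600 had 0.238, 0.144 and 0.256 CPM at 800 CH, about what 3 counts equal there, and lost its call without any of 5 of the 6 libraries (adjusted p = 0.0567 to 0.0859). Beside these, all 6 DAM genes fell, DAM5 by 3.73, DAM6 by 3.52 and DAM4 by 3.02 on the log2 scale. The tapetum and pollen wall sum was 20.9 to 37.1 CPM at 800 CH and 1.67 to 5.87 CPM at 400 CH, with 2 of the 10 genes called higher, and its part in the result was not tested.

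At 400 CH the early blooming A1956 and the late blooming A1267 differed in both directions. Of the 150 genes 30 were lower and 28 higher in A1956, with 5% of all genes tested called lower and 9.58% called higher, and the median log2 fold change was -0.23 against 0 over all genes tested. The higher share is thus nearer to the background than the lower. Ranges did not overlap for 61 genes in the lower and 41 in the higher direction, against 23.5% and 18.5% of all genes, with 2 and 3 libraries. Without A1956 replicate 1 the lower count was 17, which leaves A1956 a single library whose spread is taken from the other groups.

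CYP78A10 had 16.7 and 30.3 CPM in A1956, against 70.3, 67.8 and 52.2 CPM in A1267 (log2 fold change -1.36 ± 0.35, adjusted p = 0.00284). LFY had 32.2 and 45.8 CPM in A1956, against 93.6, 108 and 93.7 CPM in A1267 (log2 fold change -1.26 ± 0.39, adjusted p = 0.0138). MIOX1 had 36.4 and 47.2 CPM in A1956, against 188, 213 and 192 CPM in A1267 (log2 fold change -2.16 ± 0.36, adjusted p = 1.51e-05). KLU (-1.45 ± 0.32) and SUVR4 (-1.90 ± 0.48) were also called lower in A1956. Without A1956 replicate 1 the calls of CYP78A10 (-1.02 ± 0.44, adjusted p = 0.119), LFY (-1.06 ± 0.51, adjusted p = 0.177) and SUVR4 (-1.51 ± 0.61, adjusted p = 0.0935) were lost. The members with the largest deficits in A1956 were Prupe.1G038200 (-5.32 ± 0.85), the major latex protein MLP423 (Prupe.1G128800), Prupe.2G054800 (-3.55 ± 0.41), Prupe.8G122200 (-3.13 ± 0.45) and Prupe.1G012900 (-2.99 ± 0.58). MLP423 had 0.0751 and 0.0695 CPM in A1956, against 1.71, 1.45 and 1.09 CPM in A1267 (adjusted p = 0.000272), or 2 counts in all in A1956. COR47 did not reach 2-fold (log2 fold change -0.70 ± 0.33, adjusted p = 0.101). Prupe.7G060800 had 7.89 and 9.31 CPM in A1956, against 0.213, 0 and 0 CPM in A1267 (adjusted p = 3.99e-10), and like its mean of 0.0438 CPM at 100 CH this left it nearly without counts in A1267. Prupe.5G185600 had 0.902 and 1.18 CPM in A1956, against 0, 0 and 0.0727 CPM in A1267 (adjusted p = 6.75e-05) and Prupe.8G172800 0.526 and 0.903 CPM in A1956, against 0, 0.0724 and 0 CPM in A1267 (adjusted p = 0.000497), each with 1 count in all in A1267. Prupe.6G138600 was also higher in A1956 (4.36 ± 0.34), and Prupe.8G098800 had 0.827 and 2.29 CPM in A1956 and no count in A1267. All 6 DAM genes were called lower in A1956.

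In peach, 147 of the 150 genes had enough counts to be tested. The 3 others, Prupe.8G099400, Prupe.8G099600 and Prupe.8G172800, had 20 to 28 counts in all 69 libraries. At 600 CH the chilling of the low chill genotypes was complete and that of the high chill genotypes was not, by the study's account, which makes this its contrast of ecodormant and endodormant buds on the same date. Of the 147 genes 82 were lower and 11 higher in low chill than in high chill buds, where 8.74% of the 20798 genes tested were called lower and 15.2% higher. At 7.48% of the 147, the higher genes were under the share over all genes. The median log2 fold change was -1.21 over the 147 and 0 over all genes tested. No low chill library reached the lowest high chill library for 52 genes, and the reverse held for 8, against 3.06% and 6.83% of all genes. Leaving out any 1 of the 15 libraries gave 78 to 84 lower genes.

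Several of the gibberellin and growth genes differed by more than the list's median of -1.21. GA2OX8 had 2.07 to 10.6 CPM (median 3.75) in low chill libraries, against 27.7 to 41.1 CPM (median 34.8) in high chill libraries (log2 fold change -2.97 ± 0.28, adjusted p = 7.08e-14), with no overlap. CYP78A10 had 0.0372 to 0.973 CPM (median 0.561) in low chill libraries, against 4.26 to 15.8 CPM (median 7.96) in high chill libraries (log2 fold change -4.20 ± 0.50, adjusted p = 1.03e-10), again with no overlap. GRF1, a transcription factor of cell proliferation in young organs, had 7.02 to 29.1 CPM (median 21.7) in low chill libraries, against 66.1 to 81.9 CPM (median 69.5) in high chill libraries (log2 fold change -1.94 ± 0.22, adjusted p = 4.5e-11), and its ranges lay apart. GIF1 had 40.7 to 157 CPM (median 85.7) in low chill libraries, against 146 to 249 CPM (median 176) in high chill libraries (log2 fold change -1.13 ± 0.24, adjusted p = 6.28e-05), where the ranges met. The other gibberellin 2-oxidase, Prupe.4G080700, had 1.62 to 10.4 CPM (median 3.21) in low chill libraries, against 56.2 to 161 CPM (median 61.1) in high chill libraries (log2 fold change -4.48 ± 0.38, adjusted p = 1.76e-15), with no overlap. The auxin exporters Prupe.5G004300 (-2.56 ± 0.35) and Prupe.1G071800 (-2.95 ± 0.29) were lower. KLU did not pass (log2 fold change -0.73 ± 0.38, adjusted p = 0.122), though it was called lower without A209 replicate 1 (-1.32 ± 0.36, adjusted p = 0.00223), nor did the gibberellin-regulated Prupe.5G178400 (0.48 ± 0.27), ERF13 (-0.07 ± 0.32) and the cell cycle gene CYCD1;1 (Prupe.8G146700, -0.11 ± 0.38). The receptor kinase ERL1 (Prupe.2G283600), which promotes growth of inflorescences in Arabidopsis, was lower (-1.56 ± 0.24).

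Of the 16 genes that the annotation puts in transcription factor, hormone or chromatin families, 11 were lower and none higher in low chill buds, and the others did not pass. Prupe.4G080700 and Prupe.1G071800 are not in this count. SUVR4, which methylates histone H3, had 0.190 to 1.11 CPM (median 0.702) in low chill libraries, against 3.36 to 8.17 CPM (median 4.62) in high chill libraries (log2 fold change -3.07 ± 0.36, adjusted p = 5.73e-11). HB22 (Prupe.6G196000), a homeodomain factor, had 35.9 to 126 CPM (median 64.1) in low chill libraries, against 188 to 489.6 CPM (median 272) in high chill libraries (log2 fold change -2.14 ± 0.30, adjusted p = 1.5e-08). Neither gene's ranges overlapped. The other transcription factors called lower were a B3 factor (Prupe.1G517200, -3.15 ± 0.36), HSFA2 (-2.69 ± 0.52), a PLATZ factor (Prupe.4G115600, -2.55 ± 0.28), GATA16 (Prupe.6G316000, -2.54 ± 0.34), the B3 factor Prupe.8G072800 whose hit carries the names REM39 and VRN1 (-1.96 ± 0.67; without A323 replicate 4 -1.65 ± 0.70, adjusted p = 0.0538) and a bHLH factor (Prupe.1G554600, -1.57 ± 0.23). The meristem factor LMI1 (Prupe.7G121100, 0.47 ± 0.44) and the bHLH factor Prupe.6G329600 (0.90 ± 0.29) did not pass, although the last was called higher without A318 replicate 1 (1.02 ± 0.30, adjusted p = 0.00434). Outside these families, LFY had 9.08 to 35.6 CPM (median 15.2) in low chill libraries, against 55.5 to 77.8 CPM (median 66.7) in high chill libraries (log2 fold change -1.79 ± 0.30, adjusted p = 1.13e-06), with no overlap. VDD (Prupe.1G388300), needed in the Arabidopsis ovule, was lower (-2.13 ± 0.34), as were the organ boundary genes LSH3 (Prupe.8G222300, -1.65 ± 0.23) and LSH10 (Prupe.4G061700, -1.38 ± 0.17).

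The annotation puts 2 members under stress and defence, COR47 and the DnaJ protein Prupe.6G198600, and both were lower. COR47 had 2610.2 to 4884 CPM (median 3213) in low chill libraries, against 7258 to 18458 CPM (median 13453) in high chill libraries (log2 fold change -1.90 ± 0.23, adjusted p = 1.22e-10), with no overlap, and Prupe.6G198600 differed by -2.32 ± 0.49 on the log2 scale. Of the members in other families, MIOX1 had 17.5 to 51.9 CPM (median 33.1) in low chill libraries, against 102 to 400.1 CPM (median 184) in high chill libraries (log2 fold change -2.65 ± 0.25, adjusted p = 3.23e-14), and MSD1 (Prupe.6G042300), the superoxide dismutase of mitochondria, had 8.92 to 17.6 CPM (median 13.1) in low chill libraries, against 32.9 to 69.6 CPM (median 53.9) in high chill libraries (log2 fold change -2.11 ± 0.21, adjusted p = 1.58e-13). The ranges of both lay apart. The cochaperone BAG6 (Prupe.2G181700, -1.91 ± 0.46) was lower, and RBOHC did not pass (0.37 ± 0.23). These genes of other families were picked after their values were seen.

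**Figure D4:**
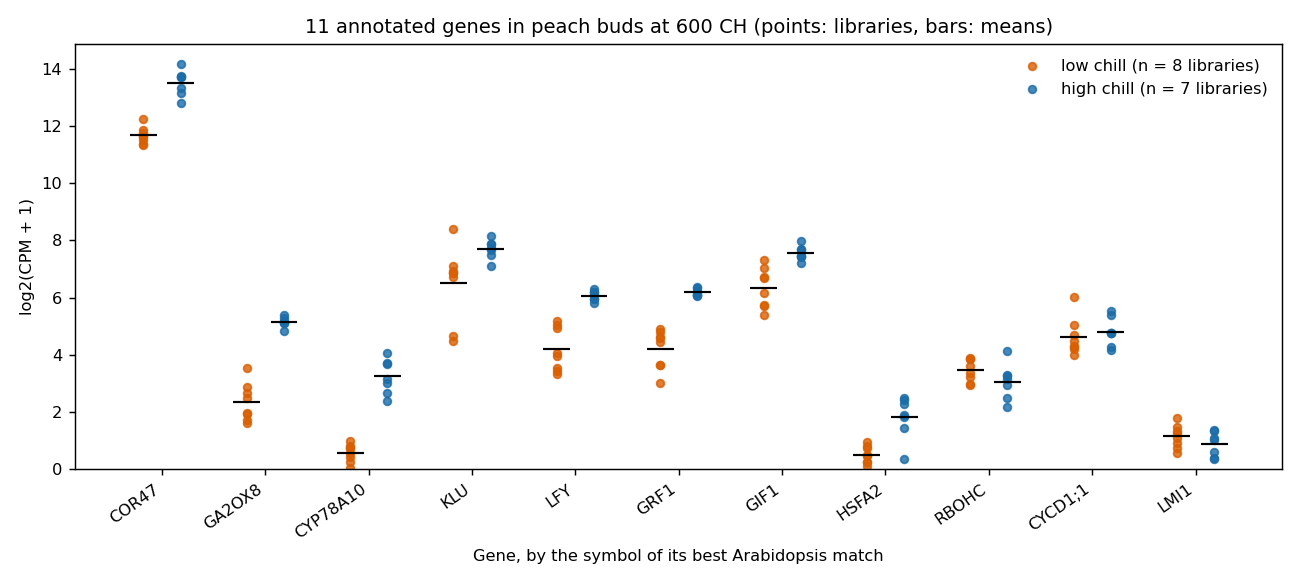
Levels as log2(CPM + 1) of 11 annotated genes of the list in the peach libraries at 600 CH, low chill left of high chill, 1 point per library with a bar at the mean. COR47, GA2OX8, CYP78A10, LFY and GRF1 separate fully, while KLU, RBOHC, CYCD1;1 and LMI1 overlap. The genes were picked after their values were seen.

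The members with the largest deficits were mostly without a description. Prupe.5G089900 had 0.0924 to 0.949 CPM (median 0.361) in low chill libraries, against 11.7 to 33.9 CPM (median 20.2) in high chill libraries (log2 fold change -5.80 ± 0.55, adjusted p = 5.67e-14). Prupe.1G580200 had 0.894 to 6.26 CPM (median 1.97) in low chill libraries, against 51.6 to 122 CPM (median 69.6) in high chill libraries (log2 fold change -5.13 ± 0.37, adjusted p = 3.67e-18). Neither overlapped. The next were Prupe.5G090300 (-4.87 ± 0.52), which lies close to Prupe.5G089900, Prupe.4G080700, Prupe.5G185600 (-4.35 ± 0.41), CYP78A10, Prupe.1G012900 (-4.19 ± 0.40) and Prupe.2G032100 (-4.07 ± 0.63). Among the 11 higher in low chill buds, SULTR1;3 had 0.545 to 2.78 CPM (median 1.66) in low chill libraries, against 0.144 to 0.499 CPM (median 0.258) in high chill libraries (log2 fold change 2.40 ± 0.66, adjusted p = 0.00211), and the cytochrome P450 CYP71A20 (Prupe.5G163800) had 96.8 to 261 CPM (median 119.8) in low chill libraries, against 19.3 to 35.6 CPM (median 28.4) in high chill libraries (log2 fold change 2.31 ± 0.22, adjusted p = 1.38e-13). Both were separate from high chill. For SULTR1;3 the high chill values were near what 3 counts equal there, 0.153 to 0.433 CPM. Prupe.6G145200 (3.81 ± 0.98), Prupe.7G197900 (2.52 ± 0.46) and Prupe.3G009500 (2.11 ± 0.35) were the next largest, and AFR (2.02 ± 0.36) and TBL38 (Prupe.4G157400, 1.91 ± 0.35), of a family that acetylates cell wall polymers, were also higher. Of the 23 genes whose apricot mean at 100 CH was highest in A2137, 3 were lower and 7 higher with a median of 0.05, and of the 124 others tested 79 were lower and 4 higher with a median of -1.47.

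Other dormancy genes and anther genes moved in the same libraries. DAM5 (-5.01 ± 0.47), DAM6 (-4.31 ± 0.42), DAM3 (-3.07 ± 0.22) and DAM4 (-2.05 ± 0.18) were lower in low chill buds and the other 2 did not pass. All 10 tapetum and pollen wall genes were higher, with summed levels of 264 to 6551 CPM (median 4963) in low chill and 18.1 to 107 CPM (median 67.6) in high chill libraries. The lowest low chill library was A340 replicate 1. Of the 5 floral organ genes 1 was called lower, with sums of 181 to 361 CPM in low chill and 181 to 305 CPM in high chill libraries. The part of anther tissue in the result was not tested. Among the other annotated genes, which the study listed from these samples, the families above went different ways. Of the growth-regulating factors 5 of 8 were lower and none higher, of the histone and chromatin genes 8 of 57 were lower and 1 higher, and of the other transcription factors 27 of 183 were lower and 33 higher. Gibberellin genes had 5 lower and 6 higher of 22, auxin genes 3 lower and 4 higher of 21, and ethylene and jasmonate genes none lower and 6 higher of 11. Of the MADS-box genes, 5 of 10 were lower and none higher.

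Within low chill peach, 104 of the 147 genes were lower and 5 higher at 600 CH than at 100 CH, with 8.23% of all genes tested called lower and 14.1% higher. At 3.40% of those tested, the higher genes were under the share over all genes. The median log2 fold change was -1.67 over the list and 0.02 over all genes tested. Separate ranges were found for 69 genes in the lower and 4 in the higher direction, against 3.22% and 6.8% of all genes. LFY had 9.08 to 35.6 CPM (median 15.2) in low chill libraries at 600 CH, against 75.1 to 195 CPM (median 114) in those at 100 CH (log2 fold change -2.75 ± 0.30, adjusted p = 9.79e-12). COR47 had 2610.2 to 4884 CPM (median 3213) in low chill libraries at 600 CH, against 10704 to 17512 CPM (median 16274) in those at 100 CH (log2 fold change -2.42 ± 0.23, adjusted p = 2.24e-14). Neither overlapped. Prupe.1G580200 (-4.97 ± 0.37), Prupe.3G222200 (-4.79 ± 0.41), Prupe.4G080700 (-4.57 ± 0.38), Prupe.5G118100 (-4.15 ± 0.49) and the B3 factor Prupe.1G517200 (-4.11 ± 0.37) had the largest falls. The 5 that rose were Prupe.3G009500 (3.46 ± 0.36), Prupe.1G038200 (2.61 ± 0.39), Prupe.6G189900 (2.52 ± 0.26), Prupe.6G145200 (2.21 ± 0.85) and the gibberellin-regulated Prupe.5G178400 (1.15 ± 0.27), of which Prupe.6G145200 lost its call without any of 5 libraries (adjusted p = 0.0528 to 0.106). DAM genes fell in 5 of 6 cases, and the 10 tapetum and pollen wall genes all rose, to a sum of 264 to 6551 CPM at 600 CH, against 7.48 to 53.02 CPM at 100 CH.

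Over the same span in high chill peach, 38 of the 147 genes were lower and 18 higher at 600 CH than at 100 CH, with 6.14% and 7.99% of all genes tested called, and the median log2 fold change was -0.41 against 0.07 over all genes. The ranges were separate for 30 genes in the lower and 10 in the higher direction, against 3.28% and 4.43% of all genes. The counts rest on both genotypes: without A318 25 genes were lower, and without A323 9 were higher, alternatives chosen after the data were seen. GRF1 had 66.1 to 81.9 CPM (median 69.5) in high chill libraries at 600 CH, against 53.4 to 74.4 CPM (median 69.4) in those at 100 CH and did not pass (-0.04 ± 0.22), and its ranges overlapped. LFY (-0.26 ± 0.30), COR47 (-0.61 ± 0.23) and CYP78A10 (0.81 ± 0.44) did not pass either. Prupe.7G128000 (-4.67 ± 0.30), TBL38 (-3.61 ± 0.37), AFR (-3.52 ± 0.38), Prupe.1G043300 (-3.28 ± 0.51) and Prupe.4G212400 (-3.01 ± 0.34) had the largest falls. SULTR1;3 also fell (-2.81 ± 0.68), to values near what 3 counts equal. MLP423 had 1.01 to 11.8 CPM (median 5.69) in high chill libraries at 600 CH, against 0 to 0.745 CPM (median 0.123) in those at 100 CH (log2 fold change 4.84 ± 0.85, adjusted p = 8.69e-06), a rise with no overlap. Prupe.3G219700 (3.06 ± 0.75), Prupe.1G038200 (2.21 ± 0.40) and Prupe.2G032100 (1.94 ± 0.60) also rose. The oxygenase Prupe.6G006000 had 0 to 0.770 CPM (median 0.265) in high chill libraries at 600 CH, against 0 to 0.0789 CPM (median 0) in those at 100 CH (adjusted p = 0.0223, and 0.0560 without A323 600 CH replicate 4), or 3 counts in all at 100 CH. ERL1 (1.52 ± 0.25), VDD (1.82 ± 0.35) and HB22 (1.18 ± 0.31) rose in high chill buds as well.

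The difference between these changes was tested as an interaction. For 71 of the 147 genes the change was lower in low chill than in high chill peach and for 8 it was higher, with 8.35% and 10.8% of all genes tested called. The 8 made up 5.44% of those tested, under the share over all genes. The median was -1.22 over the list and -0.04 over all genes. LFY (-2.49 ± 0.42), GRF1 (-2.29 ± 0.31), SUVR4 (-3.54 ± 0.48), GA2OX8 (-2.02 ± 0.38), CYP78A10 (-2.87 ± 0.65), COR47 (-1.80 ± 0.32) and KLU (-1.51 ± 0.55) were among the 71, KLU without its call when any of 3 libraries was left out (adjusted p = 0.0524 to 0.0552). The largest differences were those of Prupe.2G032100 (-5.94 ± 0.86), Prupe.5G089900 (-4.59 ± 0.69), MLP423 (-4.48 ± 1.10), Prupe.1G517200 (-3.70 ± 0.49) and GATA16 (-3.66 ± 0.48). Prupe.6G145200 (3.65 ± 1.30), SULTR1;3 (3.37 ± 0.88), TBL38 (2.42 ± 0.47), AFR (1.93 ± 0.48) and Prupe.3G009500 (1.82 ± 0.52) led the 8. For SULTR1;3 the high chill values at 600 CH were near what 3 counts equal. The call of Prupe.6G145200 was lost without A323 100 CH replicate 2 (2.43 ± 1.42, adjusted p = 0.216) or A209 600 CH replicate 2 (3.16 ± 1.30, adjusted p = 0.0648), and without A323 5 of this kind were called.

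**Figure D5:**
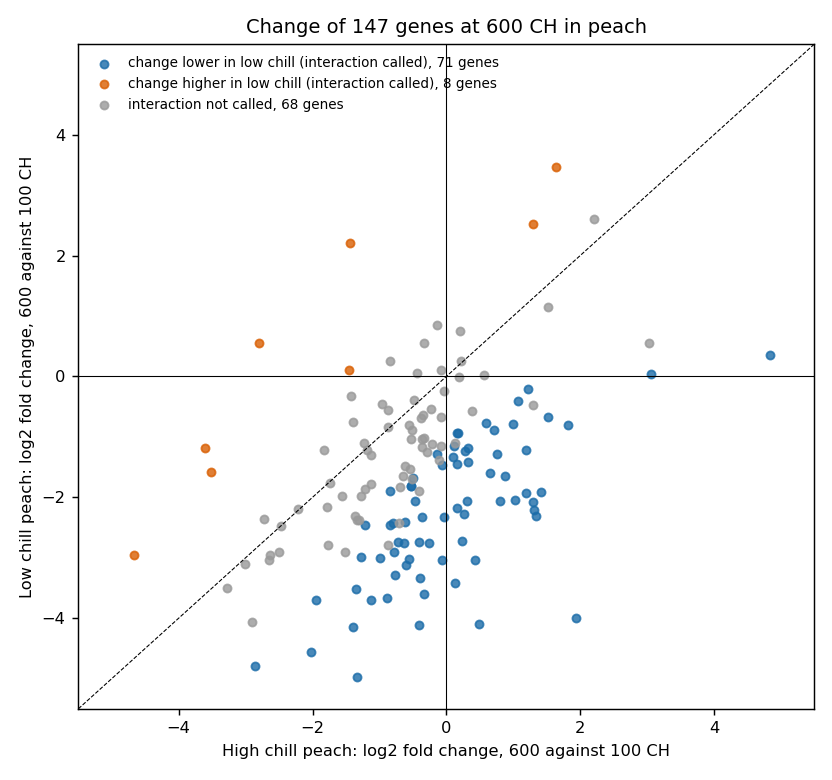
Each point is 1 of the 147 genes tested in peach, with the log2 fold change from 100 to 600 CH in high chill buds on the horizontal axis and in low chill buds on the vertical axis, coloured by the interaction test. The 71 genes whose change was lower in low chill lie below the diagonal and the 8 with a higher change above it.

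Between 600 and 1000 CH, genes of the list moved both ways in high chill peach, with A318 and A323 pooled. By the study's account the chilling requirement of A318 was met at the later time and that of A323 was not. The study found those A318 buds closer in expression to endodormant buds. At 1000 CH the summed level of the list was 18319 to 23906 CPM in A318 and 31207 to 45368 CPM in A323. The mean of log2(CPM + 1) was 4.09 to 4.29 in A318 and 3.92 to 4.13 in A323, ranges that overlap. The genotype difference was not tested. Of the 147 genes 28 were lower and 27 higher at 1000 CH, with 5.8% and 16.2% of all genes tested called, and the median was -0.05 against 0.06 over all genes. The higher genes made up 18.4% of those tested, close to the share over all genes, and the lower ones 19.05%. Ranges did not overlap for 14 and 8 genes, against 1.71% and 2.98% of all genes. ERL1 had 5.47 to 17.01 CPM (median 11.04) in high chill libraries at 1000 CH, against 41.3 to 92.5 CPM (median 49.9) in those at 600 CH (log2 fold change -2.33 ± 0.26, adjusted p = 1.46e-10), and GRF1 had 21.2 to 43.5 CPM (median 29.03) in high chill libraries at 1000 CH, against 66.1 to 81.9 CPM (median 69.5) in those at 600 CH (log2 fold change -1.23 ± 0.23, adjusted p = 1.82e-05). Both fell with no overlap. Prupe.5G090300 (-4.14 ± 0.60), Prupe.1G012900 (-3.54 ± 0.44), Prupe.1G038200 (-3.21 ± 0.43), Prupe.5G185600 (-2.94 ± 0.44) and Prupe.5G089900 (-2.63 ± 0.51) fell most. The bHLH factor Prupe.6G329600 had 121 to 289 CPM (median 183) in high chill libraries at 1000 CH, against 14.6 to 31.3 CPM (median 23.7) in those at 600 CH (log2 fold change 2.96 ± 0.31, adjusted p = 1.61e-11), a rise with no overlap, and Prupe.6G212000 (3.58 ± 0.58), Prupe.3G222200 (3.16 ± 0.44), Prupe.7G197900 (3.07 ± 0.48) and Prupe.1G043300 (2.73 ± 0.55) rose too. COR47 (-0.86 ± 0.22), LFY (-0.29 ± 0.30) and GA2OX8 (-0.46 ± 0.27) did not pass, although COR47 was called lower without A323 1000 CH replicate 1 (-1.06 ± 0.22, adjusted p = 0.000115). The tapetum and pollen wall sum was 159.8 to 488 CPM at 1000 CH and 18.1 to 107 CPM at 600 CH, with 8 of the 10 genes higher, and its part was not tested. High chill libraries had a median of 1.86e+06 counts at 1000 CH, against 1.69e+07 counts at 600 CH. Depth thus changed together with chill hours, and its part in these 8 calls was not tested.

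At the step to pre-bloom much of the list fell in high chill peach. The libraries at 1000 CH again pool A318 and A323. From 1000 CH, 78 of the 147 genes were lower and 15 higher at pre-bloom, with 11.2% and 9.93% of all genes tested called, and the median was -1.17 against -0.04 over all genes. The higher genes made up 10.2% of those tested, close to the share over all genes. No overlap was found for 41 genes in the lower direction and 1 in the higher, against 2.4% and 2.86% of all genes. LFY had 2.09 to 9.34 CPM (median 3.38) in high chill pre-bloom libraries, against 34.99 to 75.8 CPM (median 52.4) in those at 1000 CH (log2 fold change -3.93 ± 0.34, adjusted p = 3.8e-15). GIF1 had 12.2 to 45.6 CPM (median 14.5) in high chill pre-bloom libraries, against 187 to 426 CPM (median 289) in those at 1000 CH (log2 fold change -4.09 ± 0.26, adjusted p = 1.97e-20), and KLU had 3.92 to 26.2 CPM (median 5.87) in high chill pre-bloom libraries, against 45.8 to 148.2 CPM (median 99.95) in those at 1000 CH (log2 fold change -3.72 ± 0.43, adjusted p = 1.05e-10). All these ranges lay apart. Prupe.7G239200 (-5.12 ± 0.31), Prupe.4G066300 (-5.08 ± 0.48), Prupe.2G225900 (-4.49 ± 0.27) and Prupe.7G255400 (-4.45 ± 0.32) fell most, beside the B3 factor Prupe.8G072800, which had 0 to 3.97 CPM (median 0.953) at 1000 CH and no count in the 8 pre-bloom libraries. BAG6 had 120.0 to 2781 CPM (median 853) in high chill pre-bloom libraries, against 12.3 to 111 CPM (median 58.2) in those at 1000 CH (log2 fold change 4.44 ± 0.49, adjusted p = 3.5e-11) and was the 1 gene that lay wholly above. SULTR1;3 (2.59 ± 0.68), TBL38 (2.14 ± 0.37), Prupe.3G057000 (2.12 ± 0.37) and Prupe.6G095000 (1.98 ± 0.53) also rose, but the last turned to -1.64 without A318, and without A323 6 genes were higher. Of the DAM genes 4 fell, and all 10 tapetum and pollen wall genes fell. By median the libraries at 1000 CH were shallower than those at pre-bloom, and the part of depth in these falls was not tested.

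In low chill peach part of the list was higher at that stage. From 600 CH, 36 of the 147 genes were higher and 6 lower at pre-bloom, with 7.41% and 8.14% of all genes tested called, and the median was 0.49 against -0.05 over all genes. At 4.08% of those tested, the lower genes were under the share over all genes. Ranges did not overlap for 7 genes in the higher direction and 1 in the lower, against 1.19% and 2.02% of all genes. Without A340 only 11 were higher, and without A209 600 CH replicate 2 only 3 were lower. COR47 had 4763 to 7760.3 CPM (median 5935) in low chill pre-bloom libraries, against 2610.2 to 4884 CPM (median 3213) in those at 600 CH (log2 fold change 1.05 ± 0.22, adjusted p = 0.000108), where the ranges overlapped. Prupe.3G158900 had 525 to 929 CPM (median 633) in low chill pre-bloom libraries, against 47.2 to 222 CPM (median 108) in those at 600 CH (log2 fold change 2.77 ± 0.32, adjusted p = 4.39e-10), with no overlap. Prupe.5G089900 (4.16 ± 0.57), Prupe.6G048700 (2.69 ± 0.94), Prupe.1G580200 (2.65 ± 0.36), CYP78A10 (2.63 ± 0.50), BAG6 (2.27 ± 0.47), HSFA2 (1.89 ± 0.55) and GA2OX8 (1.51 ± 0.29) also rose. Of these, HSFA2 lost its call without A209 pre-bloom replicate 4 (1.24 ± 0.61, adjusted p = 0.116) and Prupe.6G048700 without A340 pre-bloom replicate 1 or 4 (adjusted p = 0.117 to 0.122). KLU (-1.27 ± 0.39), Prupe.1G038200 (-2.09 ± 0.41) and Prupe.8G095800 (-1.44 ± 0.38) fell, KLU not without A209 600 CH replicate 1 (-0.68 ± 0.35, adjusted p = 0.136). Prupe.1G056600 had 0 to 0.434 CPM (median 0) in low chill pre-bloom libraries, against 0.129 to 0.819 CPM (median 0.543) in those at 600 CH (adjusted p = 0.0361), or 2 counts in all at pre-bloom, and Prupe.8G072800 had 0 to 0.370 CPM (median 0.231) at 600 CH and no count at pre-bloom. Their calls were lost without any of 8 and 4 libraries (adjusted p = 0.0515 to 0.0879 and 0.0502 to 0.0626). LFY (0.16 ± 0.31) and GRF1 (-0.61 ± 0.23) did not pass. DAM5 (2.52 ± 0.44), DAM6 (2.31 ± 0.38) and DAM3 (1.22 ± 0.21) rose, and all 10 tapetum and pollen wall genes fell, to a sum of 33.97 to 356 CPM at pre-bloom, against 264 to 6551 CPM at 600 CH. The summed DAM level was 297 CPM in the shallowest pre-bloom library (494799 counts) and 339 CPM in A340 replicate 1 (2303355 counts). In the deepest (7153313 counts) it was 102 CPM, against 120 to 206 CPM at 600 CH. The mean of log2(CPM + 1) over the list was 3.67 in the shallowest and 3.34 in the deepest. The part of depth in these rises was not tested. The comparisons of the low chill step and the high chill step do not share libraries, and the difference between them was not tested.

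During the first chilling genes of the list went both ways. From 0 to 100 CH, 29 of the 147 genes were lower and 21 higher in low chill peach, with 8.36% and 3.82% of all genes tested called, and 49 were lower and 18 higher in high chill peach, with 14.1% and 3.96% called. The medians were -0.28 in low chill and -0.44 in high chill peach, against -0.05 and -0.15 over all genes. Ranges did not overlap for 25 genes in the lower and 17 in the higher direction in low chill peach, against 2.56% and 1.85% of all genes, and for 23 and 17 in high chill peach, against 3.21% and 2.84%. Without A323 25 genes were lower in high chill peach. COR47 had 10704 to 17512 CPM (median 16274) in low chill libraries at 100 CH, against 3887 to 7110.2 CPM (median 5577) in those at 0 CH (log2 fold change 1.57 ± 0.22, adjusted p = 5.16e-08), with no overlap, and it also rose in high chill peach (1.47 ± 0.23). DTA2 (Prupe.2G164900), named as a target of the MADS-box factor AGL15, rose in low chill (2.82 ± 0.26) and in high chill peach (2.80 ± 0.27), as did Prupe.1G580200 (2.28 ± 0.33 and 3.34 ± 0.35) and Prupe.1G038100 (2.25 ± 0.33 and 2.26 ± 0.35). A lipid transfer protein (Prupe.5G054600) rose in low chill peach (2.70 ± 0.29), beside Prupe.2G032100 (2.81 ± 0.64), and Prupe.1G038200 (4.34 ± 0.49) and Prupe.2G225900 (2.66 ± 0.26) in high chill peach. RBOHC had 1.54 to 9.81 CPM (median 5.27) in low chill libraries at 100 CH, against 8.91 to 41.5 CPM (median 30.1) in those at 0 CH (log2 fold change -2.35 ± 0.23, adjusted p = 1.55e-12), a fall with overlapping ranges, and fell in high chill peach too (-2.63 ± 0.24). Prupe.2G227200 fell in both (-2.84 ± 0.29 and -3.20 ± 0.31). The other leading falls were Prupe.4G119700 (-2.60 ± 0.42), Prupe.7G039200 (-2.55 ± 0.34) and Prupe.1G028800 (-2.49 ± 0.31) in low chill, and Prupe.4G048500 (-4.29 ± 0.78), Prupe.7G197900 (-3.86 ± 0.48), Prupe.1G043300 (-3.79 ± 0.46) and Prupe.6G212000 (-3.74 ± 0.54) in high chill peach.

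The highest levels came early in peach as well. In low chill peach 86 of the 150 genes had their highest group mean at 0 CH, 50 at 100 CH, 7 at 600 CH and 7 at pre-bloom, and in high chill peach 69 at 0 CH, 27 at 100 CH, 25 at 600 CH, 19 at 1000 CH and 10 at pre-bloom. These counts include the 3 genes with too few counts to be tested. The same count over all genes was not made, so early peaks are not shown to be particular to the list. The mean of log2(CPM + 1) over the list was 4.40 to 4.92 at 0 CH in low chill libraries, 4.41 to 4.63 at 100 CH, 2.94 to 3.62 at 600 CH and 3.34 to 3.67 at pre-bloom. In high chill libraries it was 4.24 to 5.13 at 0 CH, 4.45 to 4.63 at 100 CH, 4.04 to 4.34 at 600 CH, 3.92 to 4.29 at 1000 CH and 3.02 to 3.54 at pre-bloom. In high chill buds no library at 600 or 1000 CH reached the lowest at 100 CH, and at 600 CH the low chill libraries all lay below the high chill ones.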

How the data were processed

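Raw counts per gene and library were used as deposited. Per the paper's methods the authors trimmed the reads (single-end in apricot, paired-end in peach) with skewer, removed rRNA reads from peach, aligned both species with STAR (version 2.5.3a per the submitters' processing notes) to the peach genome v2.0, used HTSeq-count for the reads on exons, and put the v1.0 gene models in place of the DAM region. The setting for strand is not given in the sources used here, so overlapping and antisense genes may share counts. Apricot reads were aligned to peach, and a gene that differs between the species or genotypes may lose counts. The paper reports rRNA contamination in most peach libraries. It found the rRNA share to be a significant factor in expression, without a significant interaction with genotype or time point. The peach fits here had no term for rRNA, and its part in the peach comparisons was not tested.

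Groups were read from the sample labels and chill and bloom classes from the paper. Genes were filtered with filterByExpr (minimum count 10, minimum total 15) and tested in R 4.3.3 with edgeR 4.0.16 (TMM normalization, glmQLFit, glmQLFTest), with all 60 apricot libraries in 24 groups of 1 genotype and time or all 69 peach libraries in 9 groups by chill class and time point. P-values were Benjamini-Hochberg adjusted over all genes tested, and a call needed an adjusted p-value below 0.05 and a change over 2-fold. The SE is the log2 fold change, without its sign, over the root of the F statistic. Members and lists were chosen with earlier results of these data known. Genes named are the 12 highest scores, the 8 highest means at 0 and 100 CH, those next to the end of the list, the largest calls of each comparison (8 lower and 5 higher at peach 600 CH, 5 each way elsewhere), transcription factor, hormone and chromatin families, the DAM genes, and, outside this rule and after their values were seen, further annotated members. The values of 1 member named by this rule are not reported here. The fit was tested on simulated data. Alternatives used DESeq2 1.42.0, glmTreat (a test against 2-fold), other size factors, no filter, the compared libraries alone, groups by genotype, a replicate block, and left-out libraries, shallow libraries or genotypes. Of 149 pairs of libraries of a group, 0 held identical values.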

Additional observations from a re-analysis of the deposited data

Results flagged for a closer look

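Within the groups of peach libraries at 600 CH, 3 single values stood far from the rest of their group, by Dixon's test for a far sample over 46 groups of 4 to 10 libraries, where chance gives about 1 in 20. KLU (Prupe.1G288900) had 334 CPM in A209 replicate 1, where the low chill group had a median of 114 CPM, and CYCD1;1 (Prupe.8G146700) had 63.2 CPM in the same library, where the median was 19.99 CPM. RBOHC (Prupe.5G138300) had 16.4 CPM in A318 replicate 4, where the high chill group had a median of 7.88 CPM. None of the 3 genes was called between the chill classes at 600 CH with all libraries, and KLU was called lower in low chill without A209 replicate 1 (-1.32 ± 0.36, adjusted p = 0.00223).

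The change from 100 to 600 CH differed between the chill classes by the interaction term for a part of the members, lower in low chill than in high chill peach for 71 and higher for 8.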

How the results depend on the processing

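Lists rebuilt with another choice kept 142 of the 150 genes with TMM-scaled CPM, 123 and 103 with 0.1 and 10 CPM added, 110, 136 and 136 without A2137, A1956 and A1267, and 114 with group medians. A test against 2-fold (glmTreat) called 32 lower and 3 higher in A1267 at 800 against 400 CH, 10 and 14 in A1956 against A1267, 3 higher in low chill peach at 600 against 100 CH, 18 and 3 in high chill peach, 42 and 2 for the interaction, 12 and 12 at 1000 against 600 CH, 1 and 9 at low chill pre-bloom, 51 and 4 at high chill pre-bloom, 8 and 10 from 0 to 100 CH in low chill and 17 and 10 in high chill peach, a stricter requirement by construction. At 600 CH it called 60 lower between chill classes and 75 lower within low chill peach. Fitting A1267 alone gave 9 higher. After the data were seen, genotypes were left out. Without A318, 25 fell in high chill peach at 600 CH, and Prupe.6G095000 at high chill pre-bloom reversed to -1.64. Without A323, 9 rose at 600 CH, 6 at pre-bloom, 5 in the interaction, and 25 fell from 0 to 100 CH. Without A340, 11 rose at low chill pre-bloom. The cause of these changes was not tested.

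Leaving out 1 library gave 17 to 37 lower in A1956 against A1267, 3 to 6 lower at low chill pre-bloom, 78 to 84 lower between chill classes at 600 CH, and 69 to 79 for the interaction. Replicate numbers were not used to pair the samples, since in no comparison did every same-numbered pair correlate above 0.1. That rule cannot exclude a weak pairing. In A1267 at 800 against 400 CH the median correlation was 0.122 for same-numbered pairs and -0.185 for others. In low chill peach at 600 against 100 CH these were -0.093 and 0.069. With a replicate block 83 genes were lower between chill classes at 600 CH and 104 in low chill peach at 600 against 100 CH, and no count moved by over 1.5 times. For named members 3054 of 3308 alternative values kept their direction and side of the threshold, 253 kept the direction alone and 1 reversed. Shallow libraries limit calls at 1000 CH and pre-bloom.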
